A study of Mus musculus with 20 samples.

Results

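The expression of 10 mouse genes that encode enzymes of collagen maturation was followed in ventricular RNA from Sorbs2 knockout hearts. They are the 5 lysyl oxidases (Lox, Loxl1, Loxl2, Loxl3 and Loxl4), the 3 lysyl hydroxylases (Plod1, Plod2 and Plod3) and 2 prolyl hydroxylases (P3h2 and P4ha3). They are a named set of symbols taken with earlier results of these data known, and other prolyl hydroxylase genes such as P4ha1 and P3h3 stand outside it. The rule itself uses no measured value, and all 10 were found among the 18657 genes listed at 6 months and among the 17808 listed at 6 weeks, of which 17243 stood in both tables. At 6 weeks all 10 passed the filter on low values, and at 6 months 9 did, P4ha3 being too low to test.

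The 20 libraries fell into 5 groups. At 6 weeks of age there were 3 untreated wild-type (WT) mice and 3 untreated mice lacking Sorbs2 (KO), and at 6 months 5 untreated WT, 5 untreated KO and 4 KO mice given AAV9-Tnnt2-Sorbs2 on postnatal day 2 (KO+AAV), a viral vector in which the cardiac troponin T promoter drives Sorbs2, a cytoskeletal adaptor protein, in heart muscle cells. The labels name no strain, sex, knockout allele or empty-vector control, so the vector itself and the Sorbs2 it carries cannot be told apart. The labelled tissue was left ventricle and the RNA was total RNA from dissected ventricular muscle, sequenced after poly(A) selection with a kit that keeps the strand. The labels call the samples replicate mice but do not say whether the mice shared litters, so p-values measure the spread between these samples.

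Collagen chains are hydroxylated on proline and lysine inside the endoplasmic reticulum, where prolyl 4-hydroxylation lets the triple helix form and lysyl hydroxylation prepares sites for sugars and crosslinks. Once procollagen has been secreted and trimmed, the copper-dependent lysyl oxidases convert lysine and hydroxylysine side chains to aldehydes, which join neighbouring collagen or elastin molecules into crosslinks that stiffen the matrix. In the heart, fibroblasts are the main source of fibrillar collagen, and crosslinked collagen is known for its link to stiff ventricles.

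Each lysyl oxidase carries a catalytic domain in which closely spaced histidines hold the copper ion. The coding sequence of that copper-binding stretch is printed for Loxl1, Loxl2, Loxl3 and Loxl4, from the GENCODE M21 transcripts (GRCm38, the same build as mm10), because it is the part that makes these genes 1 enzyme family while their expression moved by different amounts. Each run is 36 bases of the sense strand, 5′ to 3′, and the capitals mark the 4 histidine codons.
Loxl1: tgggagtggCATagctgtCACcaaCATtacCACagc
Loxl2: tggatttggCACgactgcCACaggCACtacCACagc
Loxl3: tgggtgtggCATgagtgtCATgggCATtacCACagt
Loxl4: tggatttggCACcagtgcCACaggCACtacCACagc
Loxl2 and Loxl4 were identical at 34 of the 36 bases, whereas Loxl1 and Loxl4 shared 24 and Loxl3 shared 27 with each of the others. Each run was found by a fixed protein pattern that sets the places of its tryptophans and of the 4 histidines. The equal places of the histidine codons and the lack of gaps follow from that search, which also adds to the bases shared. The stretch began at codon 476 of Loxl1, 622 of Loxl2, 602 of Loxl3 and 607 of Loxl4, counted in the longest open reading frame.

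In the GENCODE M21 annotation Loxl1 lies on the minus strand at chr9:58287738-58313186, Loxl2 on the plus strand at chr14:69609068-69695834, Loxl3 on the plus strand at chr6:83034173-83052562, Loxl4 on the minus strand at chr19:42593982-42612813 and P3h2 on the minus strand at chr16:25959288-26105784. The values are sums over a whole gene, so exons and introns are not resolved. Loxl2 is the member whose reads are hardest to place, since 45.0% of the 50-base words in its transcripts also occur in other annotated genes, mainly Gm21451 and Gm45509, neither of which is listed in either table. How the submitters' counting treated such reads is not given in the sources used here, so the Loxl2 level carries that uncertainty. For P3h2, 28.4% of the exonic bases overlap the opposite-strand gene Gm4524, which is not listed either. For Loxl3, 11.6% overlap the opposite-strand gene Htra2, which stood at 360 ± 43.8 in WT and 282 ± 42.9 in KO hearts at 6 months (normalised counts, SD, n = 5 each). The part of such overlaps in the member values was not tested.

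Values are the submitters' normalised counts, which summed to between 6705130 and 8240290 per library at 6 weeks and between 11359100 and 13670300 at 6 months. Each age was normalised separately, so levels are compared within an age only. Sorbs2 itself was lower in every KO library than in every WT library at both ages, at 325 ± 45.3 against 1717 ± 292 at 6 weeks (SD, n = 3 each) and 1020 ± 625 against 5040 ± 369 at 6 months (SD, n = 5 each), and stood between 4696 and 17923 in the KO+AAV libraries. KO replicates 1 and 5 at 6 months held more Sorbs2 transcript (1648 and 1755) than the other 3 KO libraries (494 to 612). By Xist and Y-linked transcripts, 0 of the 5 KO libraries at 6 months were of the Xist class, against 2 of 5 WT and 2 of 4 KO+AAV. A list of 6 atrial genes summed to between 40663 and 72634 in the 6-week libraries and to between 123 and 1606 in the 6-month libraries, although both are labelled left ventricle.

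Divided by the length of the longest transcript model, Plod1, the lysyl hydroxylase of the helical part of collagen, had the highest mean of the 10 genes in each of the 5 groups, although its range overlapped that of Loxl1 at 6 weeks and in KO hearts at 6 months. At 6 months in WT hearts its level was 379 ± 16.1 normalised counts per kb (SD, n = 5), followed by Plod3 at 185 ± 5.69, Loxl1 at 165 ± 20.7 and Plod2 at 141 ± 31.3. Loxl2 came next at 72.3 ± 17.99 per kb, and Loxl3 (18.4), Lox (17.7), P3h2 (12.0) and Loxl4 (8.61) followed with ranges that overlapped from each gene to the next. P4ha3 was last at 2.06 per kb, below all values of Loxl4. The longest Plod1 model is a retained-intron transcript that is longer than its longest protein-coding model, so its level per length is, if anything, understated. In KO hearts of the same age Loxl1 stood in the second place at 373 ± 61.2 per kb, overlapping Plod1 at 390 ± 32.7. P3h2 stood in the fifth place instead of the eighth, at 168 ± 58.4 per kb, with a range that overlapped those of its neighbours Plod2 and Loxl2. This order depended on the length used. With the mean length over all transcript models, P3h2 stood at 479 ± 166 per kb in KO hearts, below Plod1 alone (951 ± 79.7). Plod3 (376) and Loxl1 (373) followed, and the lowest Plod1 library, at 890, stood above the highest Loxl1 library, at 464. In WT hearts Plod2 (257) then stood above Loxl1 (165).

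The summed level of the lysyl oxidases per kb was 282 ± 13.8 in WT, 669 ± 132 in KO and 299 ± 27.8 in KO+AAV hearts at 6 months. The lowest KO library, at 507 per kb, stood above the highest WT library, at 301, and the highest KO+AAV library, at 323. For the lysyl hydroxylases the sums were 705 ± 30.0, 785 ± 83.3 and 652 ± 32.0 per kb, and the KO range of 689 to 886 overlapped both other ranges. The mean share of Loxl1 in its family was between 56.2% and 66.6% in every group, and that of Loxl3 was 6.56% ± 1.17 in WT and 10.5% ± 3.48 in KO hearts at 6 months. With the mean length over all transcript models in place of the longest, these shares were 12.6% and 19.3% for Loxl3, and the WT and KO shares of Loxl1 were 49.6% and 46.0%.

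**Figure D1:**
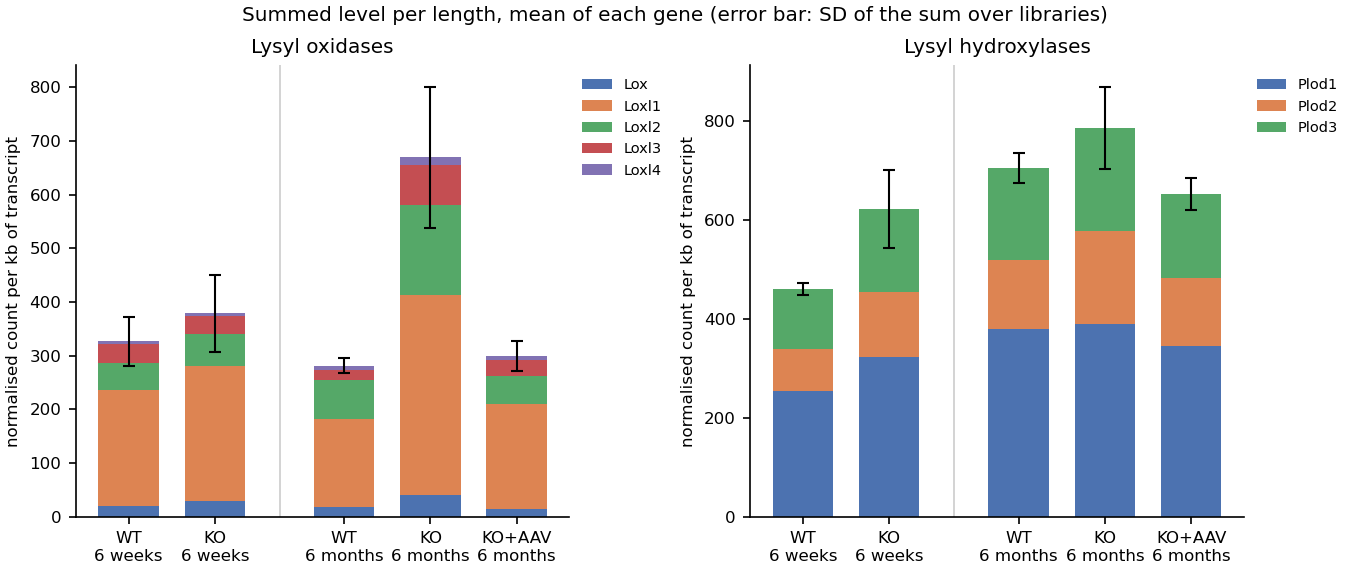
Summed normalised count per kb of transcript (y axis, linear from 0) of the lysyl oxidases (left) and the lysyl hydroxylases (right) in the 5 groups, each colour being the mean of 1 gene and the error bar the SD of the sum over libraries. The lysyl oxidase sum was 669 per kb in KO against 282 in WT and 299 in KO+AAV hearts at 6 months, while the lysyl hydroxylase sums stood between 652 and 785; the 2 ages come from tables normalised separately.

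The comparison of KO with WT hearts at 6 months asks which enzyme genes differ after long absence of Sorbs2. Of the 9 members tested, 5 were higher in KO and 0 were lower: Lox, Loxl1, Loxl2, Loxl3 and P3h2. Over all 13419 genes tested, 16.3% passed the same threshold (limma, Benjamini-Hochberg adjusted p under 0.05). As shares of all genes tested, 8.13% were higher and 8.18% lower. The lysyl oxidases had a median log2 change of 1.21 and the lysyl hydroxylases one of 0.15, beside 0.002 over all genes tested. The same 5 members passed with the Xist class as a covariate and among the Y-linked libraries alone. In bulk tissue, fewer or more cells of a type and less or more RNA per cell cannot be told apart.

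Loxl1, which is known for its part in elastic fibres, was the most abundant lysyl oxidase. Its normalised counts were 607, 445, 577, 585 and 499 in WT replicates 1 to 5 and 1528, 1150, 1140, 1007 and 1329 in KO replicates 1 to 5. The groups did not overlap: the lowest KO library, at 1007, stood above the highest WT library, at 607. The fitted log2 change was 1.17 (SE 0.130; limma adjusted p = 2.4e-05), and the exact two-sided permutation test gave p = 0.00794, the smallest that 5 against 5 allows.

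Loxl2, an oxidase that also acts on basement membrane collagen IV, stood at 279, 510, 434, 399 and 300 in WT and at 1007, 824, 1047, 644 and 933 in KO hearts. All 5 KO values lay above all 5 WT values, and KO replicate 4 was the lowest of its group. The log2 change was 1.23 (SE 0.217; limma adjusted p = 0.0012), a ratio of group means of 2.32.

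Loxl3, an oxidase needed for normal development of the palate and spine, had the largest change of the family. Its counts were 62.4, 70.3, 73.5, 78.9 and 91.9 in WT and 527, 178, 234, 165 and 400 in KO hearts. The groups were apart, but the KO values spread over a 3.18-fold range, with replicates 1 and 5 at the top and replicate 4 at the bottom. The log2 change was 1.84 (SE 0.271; limma adjusted p = 0.00027).

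Lox, the founding member of the family, was at 78.3, 103, 78.5, 35.2 and 125 in WT and at 255, 171, 173, 111 and 232 in KO hearts. Of the 5 KO libraries, 4 exceeded every WT library, and KO replicate 4 fell below the highest WT library. The log2 change was 1.21 (SE 0.328; limma adjusted p = 0.0188; exact permutation p = 0.0159). This call was lost without KO replicate 5 (log2 change 1.12, limma adjusted p = 0.0543), the only single library whose removal did so.

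Loxl4 did not pass the threshold (log2 change 0.83, SE 0.294, limma adjusted p = 0.067). Its counts were 24.4, 52.2, 34.9, 24.6 and 24.8 in WT and 54.9, 48.7, 61.6, 61.0 and 51.7 in KO hearts. The KO values were close together, and 3 of the 5 WT values lay near 25, but WT replicate 2 reached into the KO range. It passed under 5 of the 25 alternative settings. Without WT replicate 2 the log2 change was 1.02 (limma adjusted p = 0.0254), with equal totals 0.98 (0.0353) and with a pseudocount of 10 it was 0.67 (0.0466). With WT and KO fitted alone (0.0294), or without KO+AAV replicate 1 (0.0209), it passed at the same log2 change of 0.83.

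**Figure D2:**
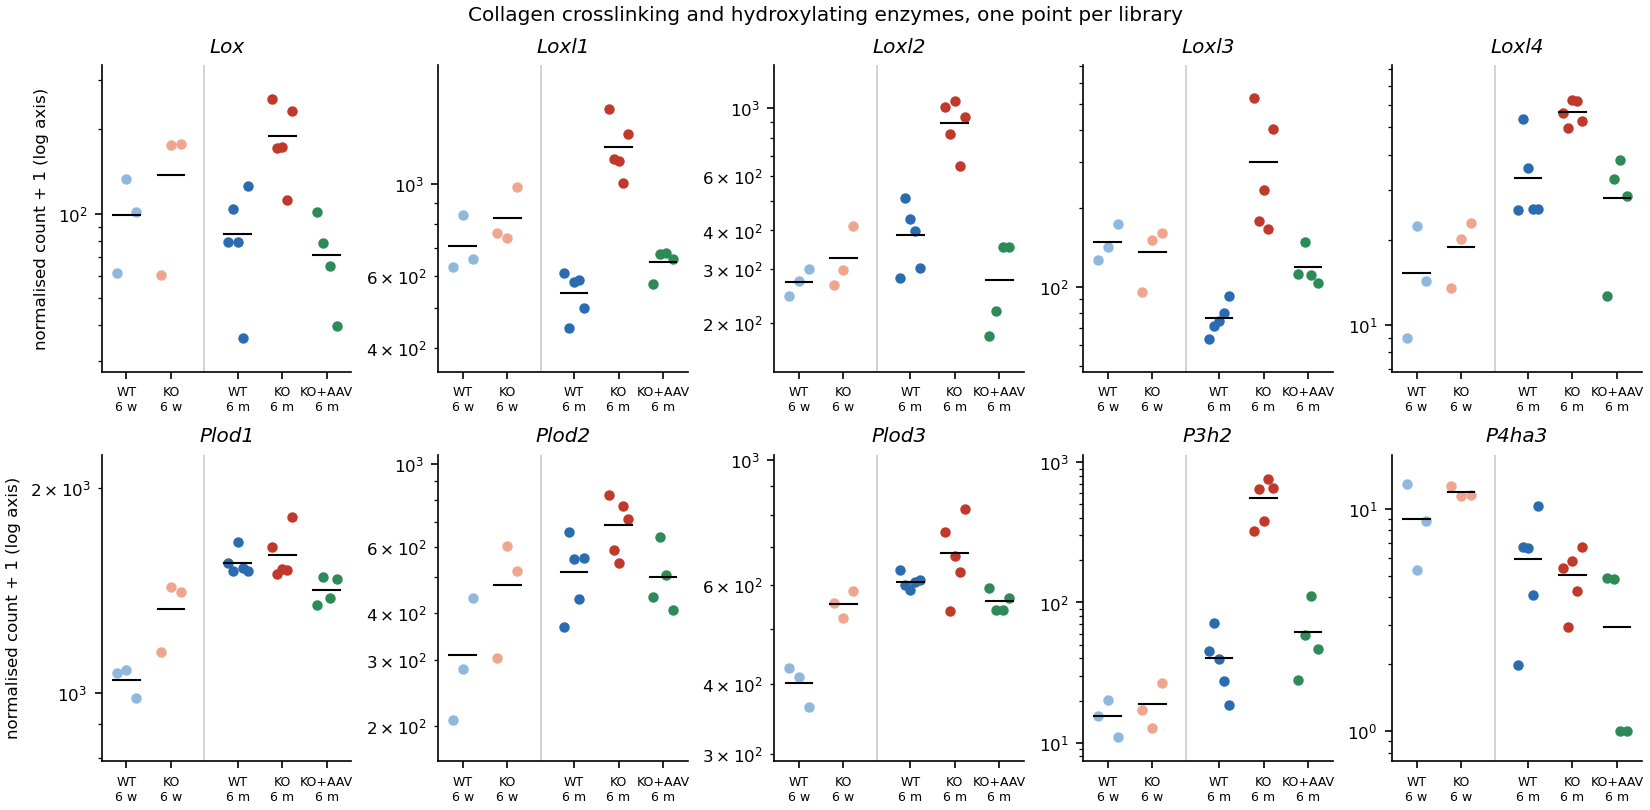
Normalised count plus 1 of each enzyme gene (y axes, log scale, each with its own range) in each library (points) and the mean of each group (black lines) for WT and KO at 6 weeks (6 w) and WT, KO and KO+AAV at 6 months (6 m), with a grey line between the 2 separately normalised ages. For Loxl1, Loxl2, Loxl3 and P3h2 the 5 KO points at 6 months lie above all WT and KO+AAV points, while the Plod1, Plod2 and Plod3 groups lie close together.

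The lysyl hydroxylases did not pass in this comparison in limma. Of the 3, 1 (Plod2) had an unadjusted p under 0.05, beside 3846 of all 13419 genes tested. Plod1 was at 1552 ± 65.9 in WT and 1596 ± 134 in KO hearts (SD, n = 5 each), a log2 change of 0.04 with a 95% interval from -0.16 to 0.24. Plod3, which also carries glycosyltransferase activity, was at 607 ± 18.7 and 681 ± 107, a log2 change of 0.15 with an interval from -0.09 to 0.39. Its KO libraries spread more widely than its WT libraries, from 537 to 818 against 586 to 636.

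Plod2, the hydroxylase of the collagen telopeptides, had counts of 367, 658, 558, 435 and 560 in WT and 824, 588, 544, 774 and 712 in KO hearts. Of the KO libraries, 3 exceeded all WT libraries, and the ranges overlapped. The log2 change of 0.43 (95% interval 0.05 to 0.81) had an unadjusted p of 0.0278 in limma and an adjusted p of 0.117. With each library scaled to an equal total it passed (log2 change 0.59, limma adjusted p = 0.0352), a scaling that moved the median of all genes by 0.16.

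P3h2 showed the largest difference of the 10 genes. It encodes a prolyl 3-hydroxylase that modifies, among others, the collagen IV of basement membranes. Its normalised counts were 43.9, 70.5, 38.7, 26.7 and 17.5 in WT hearts and 319, 641, 380, 763 and 656 in KO hearts. The lowest KO value, 319, stood far above the highest WT value, 70.5. The ratio of group means was 13.99 and the log2 change 3.84 (SE 0.387; limma adjusted p = 1.07e-05), which placed P3h2 at rank 37 of 13419 genes by log2 change.

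P4ha3, a catalytic subunit of prolyl 4-hydroxylase, was near the floor at 6 months, at 4.94 ± 3.13 in WT, 4.04 ± 1.47 in KO and 1.93 ± 2.23 in KO+AAV hearts, and was listed at 0 in 2 of the 4 KO+AAV libraries. At these values no difference could be measured.

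The KO+AAV hearts were compared with untreated KO hearts to ask which transcripts differ when Sorbs2 is supplied to heart muscle cells. Of the 9 members tested, 6 were lower in KO+AAV and 0 were higher: the 5 lysyl oxidases and P3h2. Over all genes tested, 11.2% passed in this comparison, 5.69% lower and 5.55% higher. The median log2 change was -1.20 for the lysyl oxidases and -0.27 for the lysyl hydroxylases, none of which passed. Since this comparison and that with WT share the 5 KO libraries, the values of both are set side by side and no overlap between them is read.

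P3h2 was at 27.2, 57.3, 111 and 46.0 in KO+AAV replicates 1 to 4, against 319 or more in each KO library. The highest KO+AAV library, replicate 3, stood well below the lowest KO library. The log2 change was -3.27 (SE 0.411; limma adjusted p = 0.000383), beside 3.84 for KO against WT.

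Loxl2 was at 181, 218, 352 and 354 in KO+AAV, all below the lowest KO value of 644. Its log2 change of -1.73 (SE 0.230; limma adjusted p = 0.000636) was the largest of the lysyl oxidases here, beside 1.23 for KO against WT. Loxl1 was at 571, 677, 681 and 656, all below the lowest KO value of 1007, with a log2 change of -0.92 (SE 0.138; limma adjusted p = 0.00121). These 2 genes and P3h2 passed under each of the 25 alternative settings run for this comparison.

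Loxl3 was at 111, 148, 110 and 103 in KO+AAV, below the lowest KO value of 165. Its log2 change was -1.20 (SE 0.287; limma adjusted p = 0.0148), and it did not pass without KO+AAV replicate 1 (log2 change -1.18, limma adjusted p = 0.0548) or among the Y-linked libraries alone (-1.13, 0.164), where its log2 change stayed close to that over all libraries. Lox was at 100, 77.8, 64.2 and 38.8, below the lowest KO value of 111, with a log2 change of -1.43 (SE 0.347; limma adjusted p = 0.0164). With the Xist class as a covariate the log2 change of Lox was -1.45 and the limma adjusted p 0.0579.

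Loxl4 was at 11.7, 31.9, 37.4 and 27.6 in KO+AAV, with replicate 1 the lowest and all 4 below the KO range of 48.7 to 61.6. Its log2 change of -1.12 (SE 0.311; limma adjusted p = 0.0323) was the least stable of the 6 calls and did not pass under 9 of 25 settings. Without KO+AAV replicate 1 its log2 change was -0.77 (limma adjusted p = 0.113), and the largest adjusted p, 0.161, came with the Xist class as a covariate.

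Among the lysyl hydroxylases, Plod2 had a log2 change of -0.47 between KO+AAV and KO (95% interval -0.87 to -0.07, limma adjusted p = 0.112), Plod3 one of -0.27 (-0.52 to -0.02, 0.149) and Plod1 one of -0.17 (-0.38 to 0.04, 0.263). For Plod1 the groups did not overlap, with KO+AAV libraries from 1344 to 1478 and KO libraries from 1494 to 1812 (exact permutation p = 0.0159).

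No member differed between KO+AAV and WT hearts at the threshold, where 1.33% of all genes tested passed in limma, 0.611% higher and 0.715% lower (2454 genes had an unadjusted p under 0.05, among them Loxl2 and Loxl3). For Loxl3 the 4 KO+AAV libraries, from 103 to 148, lay above the 5 WT libraries, which reached 91.9 (log2 change 0.64, 95% interval 0.03 to 1.25, limma adjusted p = 0.259; exact permutation p = 0.0159). For Loxl2 the log2 change was -0.50 (-0.99 to -0.01, limma adjusted p = 0.265), with KO+AAV replicates 1 and 2 below every WT library. For P3h2 it was 0.57 with an interval from -0.30 to 1.44, which spans 0. Plod1 was slightly lower in KO+AAV than in all WT libraries, at 1417 ± 66.0 against 1552 ± 65.9 (exact permutation p = 0.00794; limma log2 change -0.13, adjusted p = 0.452).

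**Figure D3:**
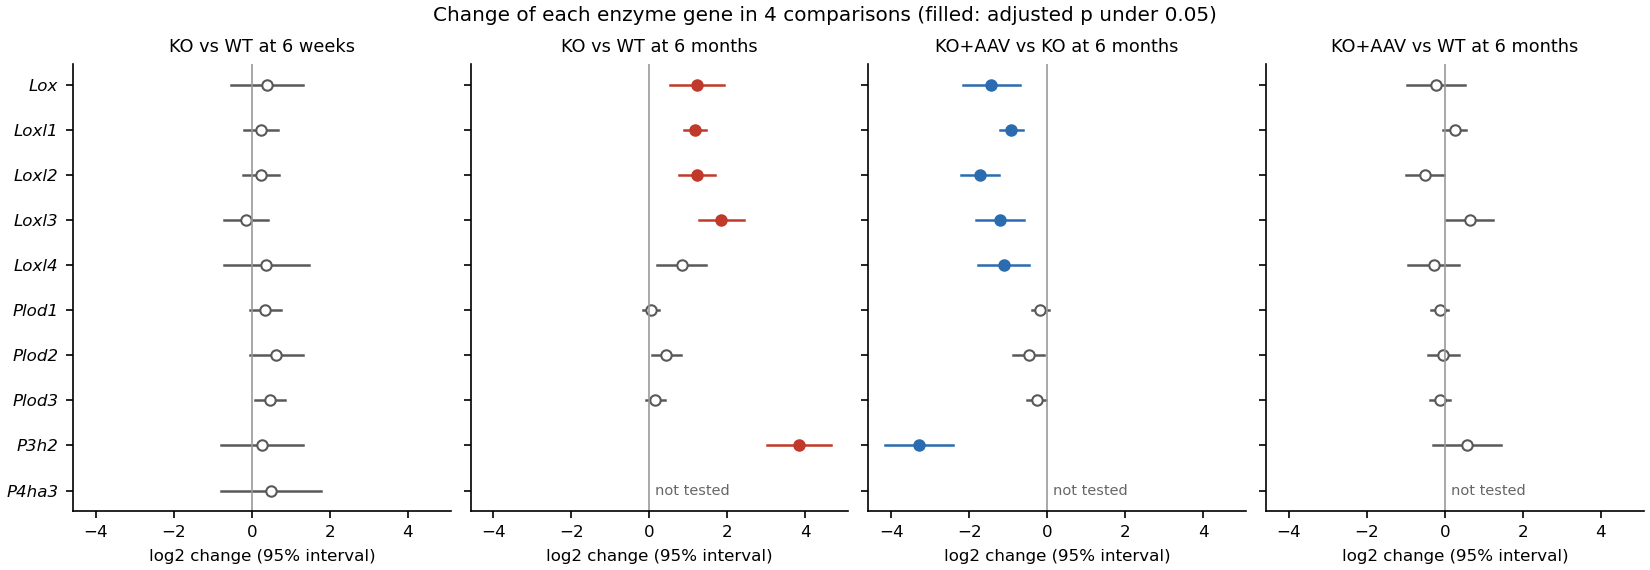
Log2 change of each enzyme gene (x axis, with 95% interval) in 4 comparisons, filled red where higher and filled blue where lower at an adjusted p under 0.05 in limma, and open where the threshold was not passed. At 6 months 5 genes were higher in KO than WT and 6 were lower in KO+AAV than KO, and P3h2 stood farthest from 0 in both, at 3.84 and -3.27; no gene passed at 6 weeks or between KO+AAV and WT.

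At 6 weeks none of the 10 members passed in limma, 1 of them (Plod3) had an unadjusted p under 0.05, and 0.589% of the 13242 genes tested did, 0.378% higher and 0.211% lower (2045 had an unadjusted p under 0.05 in limma). P3h2 was low in both groups, at 14.5, 19.3 and 9.98 in WT libraries WT1, WT6 and WT16 and at 16.2, 11.9 and 25.9 in KO libraries KO2, KO3 and KO4. Its groups overlapped, with a log2 change of 0.26 and an interval from -0.80 to 1.32. For the lysyl oxidases the log2 changes ran from -0.15 for Loxl3 to 0.39 for Lox, and for each of the 5 the groups overlapped.

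Of the 3 lysyl hydroxylases, none of which passed, Plod3 and Plod1 had groups that did not overlap at this age and Plod2 had groups that did. How many of all genes tested separate in this way was not counted, so this is no result about the family. Plod3 was at 426, 410 and 363 in WT and at 555, 523 and 584 in KO hearts, all KO values above all WT values (log2 change 0.47, 95% interval 0.09 to 0.86). Its unadjusted p was 0.0207 and its adjusted p 0.233 in limma, and the exact permutation p was 0.1, the smallest that 3 against 3 can give. Plod1 was likewise apart, at 1068, 1079 and 979 in WT and 1146, 1428 and 1404 in KO hearts (log2 change 0.34, limma adjusted p = 0.393). Plod2 had a log2 change of 0.63 with overlapping groups (95% interval -0.05 to 1.30, limma adjusted p = 0.356).

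Whether the KO change itself differed with age was tested on the difference between the 2 within-age log2 changes. Of the 9 members tested, 3 had a larger KO change at 6 months than at 6 weeks: P3h2 by 3.58 (SE 0.620, adjusted p = 0.00139), Loxl3 by 1.99 (SE 0.371, adjusted p = 0.00188) and Loxl1 by 0.95 (SE 0.238, adjusted p = 0.0281), from the limma fits of both ages. Over 12709 genes, 4.08% passed this test, 1.99% with a larger and 2.09% with a smaller value at 6 months. For Loxl2 the difference was 1.00 (adjusted p = 0.0637) and for Lox 0.82 (adjusted p = 0.443). Plod1, Plod2 and Plod3 had differences of -0.30, -0.20 and -0.32 that did not pass. Age goes together here with a separate table and with the atrial transcripts found in the 6-week libraries of both genotypes, and the part of either in these differences was not tested. The Loxl1 difference was lost when the 6-week library WT6, KO2 or KO3 was left out, with a largest adjusted p of 0.153.

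The enzymes were next set against fibrillar collagen transcripts in the same library. The ratio is the log2 level of the enzyme minus the mean log2 level of Col1a1, Col1a2 and Col3a1, the chains of collagens I and III. The basement membrane collagens, on which P3h2 and Loxl2 also act, were not part of it. At 6 months Lox, Loxl1 and Loxl2 differed between KO and WT by -0.07, -0.11 and -0.06 on this ratio, with overlapping ranges. Loxl3 differed by 0.56, also with overlap, and Loxl4 by -0.46. Plod1, Plod3 and Plod2 stood lower relative to collagen in KO, with differences of -1.25, -1.13 and -0.86, and the Plod1 and Plod3 groups did not overlap. Their own log2 changes were 0.04, 0.15 and 0.43, so the lower ratios follow from the higher collagen reference. P3h2 was 2.55 higher relative to the same collagens, without overlap. At 6 weeks the differences on this ratio were negative for all 10 members, from -0.09 for Plod2 to -0.86 for Loxl3, the only member whose groups did not overlap there. All 10 ratios share the same collagen reference, in which Col1a1 stood at 2308 ± 64.3 in WT and 4222 ± 1999 in KO (SD, n = 3 each). The members' own log2 changes at that age ran from -0.15 for Loxl3 to 0.63 for Plod2. The common negative sign therefore reflects that reference and is no result about the members.

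In KO+AAV hearts the ratios of Plod1 and Plod3 to fibrillar collagen were 1.08 and 0.98 higher than in KO hearts, without overlap, and that of P3h2 differed by -2.02, also without overlap. Plod1 and Plod3 themselves had log2 changes of -0.17 and -0.27 there, so their higher ratios follow from the lower collagen reference. Set against a list of 10 fibroblast genes instead, Loxl3 was 1.33 and P3h2 3.33 higher in KO than WT without overlap. Lox, Loxl1 and Loxl2 were 0.70, 0.66 and 0.71 higher on that ratio, with overlapping ranges. The activated fibroblast list holds 6 genes that did not move together between WT and KO at 6 months. Postn, Cilp and Meox1 rose in KO, Acta2 fell, and Cthrc1 stayed under 10 in every library. Set against the mean of that list, the differences were negative for Lox (-0.36), Loxl1 (-0.39), Loxl2 (-0.34) and Loxl4 (-0.74), and Loxl3 differed by 0.27, each with overlap. Plod1, Plod2 and Plod3 differed by -1.53, -1.14 and -1.42 and P3h2 by 2.27 on that ratio, without overlap. These ratios are a description within each library and carry no test.

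**Figure D4:**
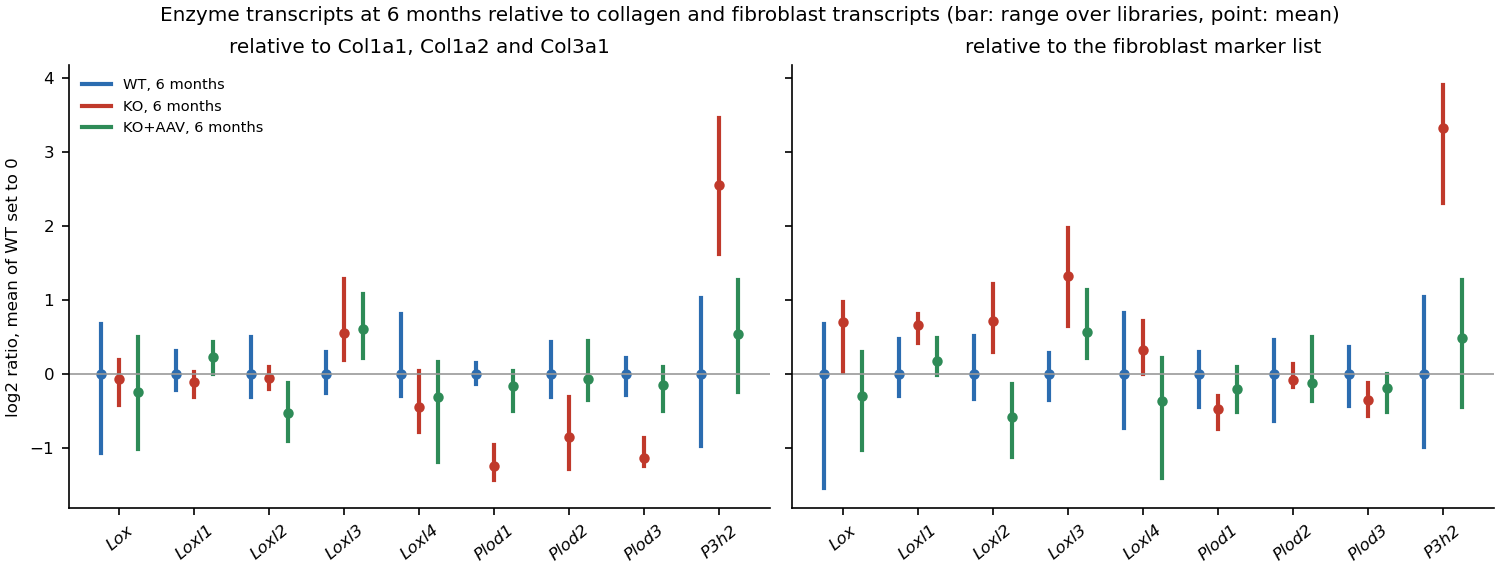
Log2 ratio of each enzyme gene at 6 months to the mean of Col1a1, Col1a2 and Col3a1 (left) and to a list of 10 fibroblast genes (right), with the WT mean set to 0 (y axis), points for group means and bars for the range over libraries. Relative to collagen, P3h2 stands 2.55 above WT in KO hearts and Plod1 and Plod3 stand 1.25 and 1.13 below it, while Lox, Loxl1 and Loxl2 stay within 0.11 of it.

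The other genes of collagen maturation were taken from lists of the pathway. Among the other subunits of prolyl hydroxylase complexes, 1 of 8 rose in KO hearts at 6 months, P3h3 (log2 change 0.74, limma adjusted p = 0.0385), a share near the 8.13% of all genes tested that were higher. The other catalytic subunits of prolyl 4-hydroxylase, relatives of P4ha3 named here for that role, did not pass. P4ha1 was at 987 ± 187 in WT and 1363 ± 185 in KO hearts (log2 change 0.47, limma adjusted p = 0.061) and P4ha2 at 784 ± 100 and 743 ± 142 (-0.09, 0.764). Of 8 chaperones and glycosyltransferases, 3 rose, namely Sparc (0.87), Serpinh1 (0.54) and Fkbp10 (0.53), of which Serpinh1 and Fkbp10 assist collagen folding and Sparc binds secreted collagen. Of 6 procollagen processing genes tested, 2 rose: Adamts2, which removes the amino-terminal propeptide, by 1.29 and Pcolce, which enhances the removal of the carboxy-terminal one, by 0.87.

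Of 8 genes that help activate lysyl oxidases or build elastic fibres, 4 rose: Emilin1 (log2 change 1.47), Fn1 (1.06), Eln (0.94) and Ltbp4 (0.39). Among the fibrillar collagens, 6 of 9 tested rose, with Col1a1 at 1290 ± 126 in WT and 3773 ± 956 in KO hearts (log2 change 1.52). Col11a1 rose by 3.39 on the log2(value + 1) scale from WT values between 0 and 4.74. Among the basement membrane collagens, 7 of 8 rose, led by Col4a3 (1.73) and Col4a4 (1.32), and their median log2 change was 0.92 beside 1.03 for the fibrillar collagens. In KO+AAV against KO hearts, 6 of 9 fibrillar and 6 of 8 basement membrane collagens were lower, as were 1 of 6 processing genes (Adamts2, -1.07), 1 of 8 chaperones (Sparc, -0.75) and 3 of 8 genes of the activation and elastic fibre list (Fn1, Atp7a and Tgm2). Unlike Fn1, the means of Atp7a (145 in WT, 143 in KO, 89.1 in KO+AAV) and Tgm2 (5577, 5506 and 3943) were not higher in KO than in WT. Beside the 5.69% of all genes tested that were lower, single genes of lists of 6 or 8 are no result about those lists. Among the 8 other prolyl hydroxylase subunits 0 were lower and P3h4 was higher, by 0.47. At 6 weeks 0 of the 47 genes tested from these 6 lists passed in limma, beside 0.589% of all genes tested. Of the 47, 11 had an unadjusted p under 0.05 in limma, beside 2045 of all 13242 genes tested.

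**Figure D5:**
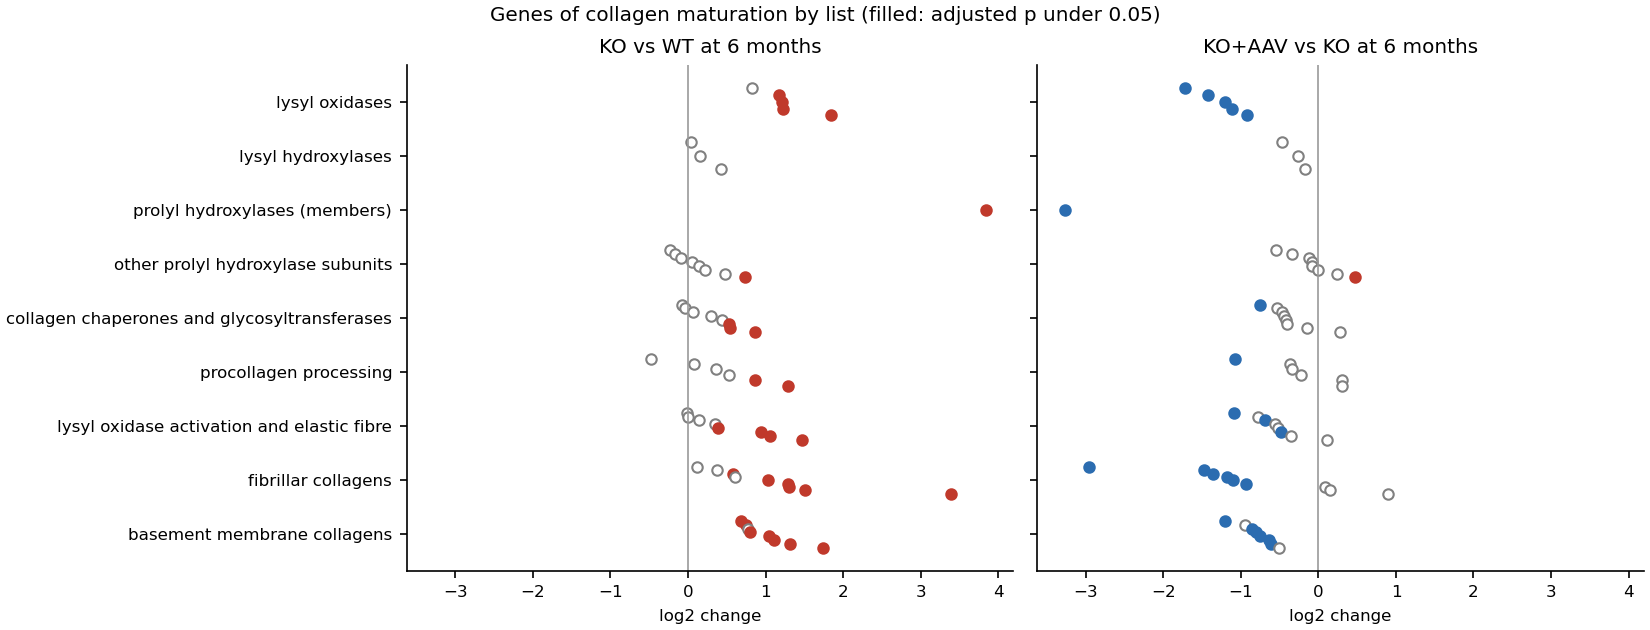
Log2 change (x axis) of each tested gene (points) in the enzyme families and the pathway lists (rows) for KO against WT (left) and KO+AAV against KO (right) at 6 months, filled where the adjusted p was under 0.05 in limma. Collagens and lysyl oxidases are mostly filled, red at the right of 0 in KO and blue at the left of 0 in KO+AAV, while lysyl hydroxylases are open in both panels.

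Markers of the cells that could supply these transcripts differed between the groups for some cell types and not for others. At 6 months 4 of 10 fibroblast genes rose in KO hearts, and the list summed to between 27559 and 43291 in WT, 30738 and 48156 in KO and 29750 and 39346 in KO+AAV libraries. Of 5 genes of activated fibroblasts tested, 3 rose (Postn by 3.57, Cilp by 4.79 and Meox1 by 2.46) and Acta2, the smooth muscle actin of myofibroblasts and vessel walls, fell by 1.26 on the log2 scale. Their sums were 3770 to 6700 in WT, 8597 to 16298 in KO and 3473 to 4810 in KO+AAV, and Cthrc1 exceeded 10 in none of the libraries. Of 10 heart muscle genes 3 were lower in KO (Myh6, Tnni3 and Ckm), with list sums of 1234020 to 1512990 in WT, 709084 to 995465 in KO and 1073490 to 1647520 in KO+AAV. Of 10 endothelial genes 0 passed in KO against WT in limma, and 2 had an unadjusted p under 0.05, beside 3846 of all 13419 genes tested. Among 8 mural genes 1 was higher and 1 lower in KO, and among 8 macrophage genes 1 was higher. These shares are near the 8.13% higher and 8.18% lower among all genes tested. The part of these marker differences in the enzyme values was not tested.

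The KO hearts at 6 months differed among themselves in a pattern that was not the same for all members. KO replicates 1 and 5 were the 2 highest of 5 for Lox, Loxl1, Loxl3, Plod1 and Plod3, as they were for Postn, Col1a1 and Sorbs2 itself, and replicate 4 was the lowest for Lox, Loxl1, Loxl2 and Loxl3. For Col3a1, replicate 1 stood below replicates 3, 5 and 2. Replicates 1 and 5 also had the highest mean log2 level of the fibroblast list among KO libraries (10.80 and 10.58). Their heart muscle list means were the lowest (15.53 and 15.52). The part of these differences in the enzyme values was not tested. For P3h2, replicate 4 was the highest at 763 and replicate 1 the lowest at 319, while replicate 5 was again the second highest. Without replicates 1 and 5 together, an alternative added after the values were seen, Loxl1, Loxl2, Loxl3 and P3h2 still passed against WT and Lox did not (limma adjusted p = 0.133). The Loxl3 log2 change was then 1.34 against WT and -0.70 in KO+AAV against KO, beside 1.84 and -1.20 with all libraries. In KO+AAV against KO, Lox (log2 change -1.15, limma adjusted p = 0.0628) and Loxl4 (-1.15, 0.0577) did not pass without replicates 1 and 5, though the log2 change of Loxl4 was no smaller than with them. The age difference of Loxl1 did not pass either (0.80, limma adjusted p = 0.0719).

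Over the 14 libraries at 6 months, which share their groups, the log2 levels of Loxl1 and Loxl3 had a Pearson correlation of 0.92, and after removal of the group means one of 0.63. For P3h2 and Loxl3 the same 2 values were 0.76 and -0.38, and for P3h2 and Loxl4 0.81 and 0.70. The genes most like Loxl1 over these libraries, among 9215 well-expressed genes, were Fmod (r = 0.96), a small collagen-binding proteoglycan, Panx1 (0.96) and Dio2 (0.96), with correlations of 0.62, 0.56 and 0.53 after removal of the group means. Nearest to Loxl2 were Msn (0.97), Col5a1 (0.97), a chain of the fibril-forming collagen V, and Emp1 (0.96), with 0.84, 0.84 and 0.90 after that removal. Lox was most like Zfp91 (0.87), Cers5 (0.83) and Timp1 (0.83), an inhibitor of matrix metalloproteinases, with 0.66, 0.61 and 0.82 after it. Plod2 was most like Uri1 (0.89), Fgfr1 (0.88) and Prkdc (0.86), with 0.81, 0.85 and 0.92 after it. These correlations describe 14 libraries of 3 groups and carry no p.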

How the data were processed

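The 20 mouse libraries were analysed from 2 deposited tables, 1 for each age, which hold a signal that the authors normalised (normalised counts per gene, not per length), and the series text names DESeq2 for their tests. Reads were placed on mm10, per the submitters' processing notes (aligner and counter not given in the sources used here). Of the low values in each library, between 78.4% and 94.9% at 6 weeks and between 91.8% and 95.0% at 6 months were whole multiples of a step. That step was the one that fitted the library best (tolerance 0.1 of a step). Reads were not recovered from these values, so depth is unknown and no count test was run.

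The log2 of the value plus a pseudocount of 1 was fitted with limma 3.58.1 in R 4.3.3 with a mean-variance trend, after keeping genes at 10 or more in at least 3 libraries at 6 weeks or 4 at 6 months. At 6 months the 3 groups shared 1 model. P-values are two-sided and Benjamini-Hochberg adjusted over all genes tested, with a threshold of 0.05, and fold changes on this scale understate the change of low genes. The difference between ages was tested with the combined standard error of both fits. Single genes were also tested by exact two-sided permutation. The fit was tested on simulated data. The columns at 6 weeks carry mouse numbers that match a genotype and no single sample, so they serve as replicates with no number. The replicate numbers at 6 months do not pair the samples. Levels per length, copper-site sequences and overlaps came from GENCODE M21. Members and lists were chosen with earlier results of these data known. All 10 members and Sorbs2 are named, with up to 4 genes of smallest p from each list and comparison and, for Lox, Loxl1, Loxl2 and Plod2, the 3 other genes of highest correlation with a mean of at least 100. Alternatives covered pseudocounts of 0.5 and 10, filters, scalings, the Xist class and the replicate block as terms, and leaving out each library.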

Additional observations from a re-analysis of the deposited data

Results flagged for a closer look

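For 3 enzyme genes the KO change differed between the 2 ages by a test of the difference itself. The change at 6 months exceeded that at 6 weeks by 0.95 on the log2 scale for Loxl1, by 1.99 for Loxl3 and by 3.58 for P3h2.

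In WT hearts at 6 months, Plod1 in replicate 3 stood at 1665, apart from the other 4 libraries, which lay between 1507 and 1552. It was the only 1 of 33 groups of 4 or 5 values checked where a library stood apart in this way, and chance marks about 1 in 20.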

How the results depend on the processing

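Loxl1, Loxl2, Loxl3 and P3h2 remained higher in KO than WT at 6 months under each of 25 alternatives, and the number of members higher stayed between 4 and 6 when 1 library was left out, as did the number lower in KO+AAV than KO. For the difference between ages it ran from 2 to 4.

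The number of genes called over the whole table moved more. At 6 weeks it was 78, and 36 with equal totals, 189 with the Xist class as a covariate, 409 among Y-linked libraries alone and between 7 and 163 when 1 library was left out. For KO against WT at 6 months it was 2189, and 1402 without KO replicates 1 and 5 together. For KO+AAV against KO it was 1509, and 542 with the Xist covariate, 335 among Y-linked libraries alone and 568 to 1816 when 1 library was left out. For KO+AAV against WT it was 178, and 46 among Y-linked libraries alone, 102 with the 2 groups fitted alone and 107 to 472 when 1 library was left out. For the difference between ages it was 518, and 205 to 585 when 1 library was left out. The cause of these shifts was not tested, beyond the smaller number of libraries in some.

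Equal totals moved the median of all genes by 0.16 at 6 months and the share of called genes that were higher in KO from 49.8% to 72.9%. With the replicate number as a block, 2071 genes were called for KO against WT, and no member's call changed. Same-numbered pairs of libraries correlated between -0.39 and 0.25, and 7 of 13 above 0.1, so the numbers are not taken as a pairing. No paired analysis was possible at 6 weeks because the columns carry no replicate number.

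The sign turned for members that passed in neither fit. At 6 weeks, leaving out 1 library gave log2 changes from -0.285 to 0.089 for Loxl3 and from -0.025 to 0.506 for P3h2. For Plod1 in KO against WT at 6 months they ran from -0.0091 to 0.0634, and the value was -0.0391 without KO replicates 1 and 5 together. In KO+AAV against WT they ran from -0.497 to 0.0361 for Lox, from -0.473 to 0.061 for Loxl4 and from -0.169 to 0.0526 for Plod2, which was at 0.0347 with equal totals and 0.0196 with quantile normalisation. For the Plod2 difference between ages the range was -0.49 to 0.0575.

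The unknown depth, the 3 mice a group at 6 weeks and the absence of Xist-class libraries from the KO group at 6 months limit what these values can show.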
